A study of Rattus norvegicus with 6 samples.

Results

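The insulin-like growth factors (IGFs) and their binding proteins (IGFBPs) were examined in the rat lateral ventricular choroid plexus at E15 and in the adult. The members were the genes *Igf1*, *Igf2*, *Igf1r*, *Igf2r* and *Igfbp2* to *Igfbp7*, taken where the authors' deposited table of differentially expressed genes holds the name. This gave 8 of 10 names, among 10653 genes in that table and 29479 gene identifiers with counts. The receptor genes *Igf1r* and *Igf2r* were not analysed here by name. The members were thus selected by a call as different between E15 and adult in the study's own test on these pools. The age differences below are a description and carry no test. For the same reason no p-value is given for any gene of the family. The largest differences were those of *Igf2*, 13.2-fold higher in the adult, and *Igfbp4*, 18.1-fold higher at E15. The smallest was that of *Igfbp7*, and no member outside the table could be set beside it.

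IGF1 and IGF2 are small secreted growth factors that signal mainly through the IGF1 receptor, a tyrosine kinase. The IGF2 receptor, which also sorts lysosomal enzymes, takes up IGF2 and delivers it for breakdown. IGFBPs bind the ligands in tissue fluid and plasma, prolong their life and either withhold them from the receptor or bring them to it. In the brain the choroid plexus is a known site of *Igf2* and *Igfbp2* transcription, and its epithelium secretes into the cerebrospinal fluid (CSF).

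Both lateral ventricular plexuses of Sprague-Dawley rats were dissected at embryonic day 15 (E15) and at 6 weeks (adult), from untreated animals. Each sample was a pool of 10 animals, with 3 pools at each age and 1 library of polyadenylated RNA per pool. The plexus was taken whole, so blood cells, vessels and stroma were in the pools beside the epithelium, and fewer cells of a type cannot be told apart from less RNA per cell. The libraries held between 17875089 and 19204440 counts. Counts were normalized by TMM, a scaling that sets the typical gene equal across libraries, to a library of 19267327 counts. The TMM factors lay between 1.32 and 1.33 for E15 pools, compared with 0.735 to 0.773 for adult pools, so an adult count weighed more than an E15 count after scaling. E15 replicate 1 stood apart from the other E15 pools in several members, and values without it are given where they matter.

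Of the 10 genes listed as markers of plexus epithelium, 8 were matched, among them *Ttr* (transthyretin), *Folr1* and *Kl*, and 0 of these were at 0 counts at either age. Their summed level lay between 474714 and 568044 normalized counts in E15 pools, compared with 4135915 to 5067466 in adult pools. Most of it was *Ttr*, with a mean of 445731 at E15 and 3995247 in the adult. Marker genes of other cell types were also present at both ages. The summed level of 7 of 8 endothelial markers was 8215 to 12052 at E15 and 971 to 1348 in the adult. For 8 of 8 genes of mesenchyme and stroma it was 42395 to 56744 and 16966 to 18149, and for 3 of 6 genes of smooth muscle and pericytes 4948 to 6191 and 920.3 to 1227. For 3 of 4 leptomeningeal genes it was 699 to 959.9 and 49.6 to 259.7. Within the list of mesenchyme and stroma, *Dcn* and *Pdgfra* went the other way, 6.52- and 2.84-fold higher in the adult. Macrophage markers, 4 of 6 matched, summed to between 1176 and 1440.0 in E15 pools, compared with 1233 to 1423 in adult pools. Of these 4, *Csf1r* was 2.27-fold higher at E15. *C1qa*, *Cd14* and *Cx3cr1* were 1.67-, 5.55- and 2.31-fold higher in the adult. No matched gene of these lists was at 0 at an age. A marker could be matched only where the study had called it as different between these same pools. Separation of the ages was thus largely set in advance for the matched genes. The summed ranges overlapped for the macrophage list alone. The part of these cell types in the differences of the IGF genes was not tested.

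The sequence before the start site is shown for the genes with the largest differences, *Igf2* and *Igfbp4*, and for the neighbouring pair *Igfbp2* and *Igfbp5*, which differed in opposite directions. Each run is the 250 bases before a start site in RefSeq (build GRCr8), read 5′ to 3′ on the strand of the gene. Capitals mark the GC box letters GGGCGG or their complement CCGCCC, and the TATA box letters TATAAA or TTTATA. *Igf2* has more than 1 start site in that table, and the sequence shown lies at chr1:207250476-207250725 on the minus strand. The others lie at chr9:81864561-81864810 on the plus strand (*Igfbp2*), chr9:81914188-81914437 on the minus strand (*Igfbp5*) and chr10:84491221-84491470 on the plus strand (*Igfbp4*).
*Igf2*: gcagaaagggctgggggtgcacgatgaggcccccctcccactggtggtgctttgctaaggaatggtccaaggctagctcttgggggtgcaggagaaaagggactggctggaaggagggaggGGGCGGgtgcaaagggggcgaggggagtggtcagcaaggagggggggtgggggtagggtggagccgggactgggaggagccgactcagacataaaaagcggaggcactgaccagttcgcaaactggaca
*Igfbp2*: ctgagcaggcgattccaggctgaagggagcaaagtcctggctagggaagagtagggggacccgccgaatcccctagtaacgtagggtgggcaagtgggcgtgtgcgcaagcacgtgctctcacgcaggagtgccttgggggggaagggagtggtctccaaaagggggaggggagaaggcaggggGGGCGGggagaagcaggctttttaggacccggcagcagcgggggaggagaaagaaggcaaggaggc
*Igfbp5*: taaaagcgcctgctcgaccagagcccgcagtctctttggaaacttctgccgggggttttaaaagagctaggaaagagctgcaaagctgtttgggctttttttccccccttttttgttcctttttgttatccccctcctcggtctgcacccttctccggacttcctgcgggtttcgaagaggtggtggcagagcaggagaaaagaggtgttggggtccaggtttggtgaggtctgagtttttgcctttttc
*Igfbp4*: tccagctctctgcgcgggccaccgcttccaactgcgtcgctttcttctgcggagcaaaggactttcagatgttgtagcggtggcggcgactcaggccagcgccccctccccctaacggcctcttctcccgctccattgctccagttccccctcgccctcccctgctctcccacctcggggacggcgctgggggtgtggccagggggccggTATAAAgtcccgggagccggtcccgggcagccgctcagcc

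The GC box letters were found once in the window of *Igf2* shown and once in that of *Igfbp2* and 4 times in that of *Igfbp7*. They were in none of the windows of *Igf1*, *Igfbp3*, *Igfbp4*, *Igfbp5* and *Igfbp6*, nor in that of the other *Igf2* start site. On either strand, 30.5% of 33469 promoter windows of this length hold them. The TATA box letters were found only before *Igfbp4*, starting at base -40 from the start site, and 12.9% of all windows hold them. The CCAAT box letters CCAAT, or ATTGG on the other strand, were in 0 of the 9 windows of the 8 genes, against 34.0% of all windows. The motifs searched share no letters at the sites found. The share of G and C was 63.6% before *Igf2*, 64.0% before *Igfbp2* and 68.8% before *Igfbp4*, compared with 51.6% before *Igfbp5* and a median of 51.2% over all windows. A match is a description of letters, and nothing in these libraries measured binding.

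*Igf2* (ENSRNOG00000020369) was the ligand with nearly all of the ligand reads at both ages. Its raw counts were 29813, 33861 and 29871 in E15 replicates 1, 2 and 3 and 233359, 243569 and 237728 in adult replicates 1, 2 and 3. The adult pools all lay far above the E15 pools, and pools of an age were close to each other. The normalized counts were 24634 ± 1340.3 for E15 against 324398 ± 7296 for adult pools (SD, n = 3). The fitted difference was a log2 fold change of -3.72 (standard error 0.10), where negative values are higher in the adult. With each pool left out in turn it stayed between -3.77 and -3.69. Reads of *Igf2* made up 0.161% to 0.179% of all counts of an E15 library and 1.26% to 1.29% of an adult library. In RefSeq the gene overlaps the microRNA gene *Mir483* and the predicted coding gene LOC102548568, and whether the counting used the strand of the reads is not given in the sources used here.

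*Igf1* (ENSRNOG00000004517) was also higher in the adult, but at far fewer counts and with more spread between pools. It had 240, 162 and 149 raw counts over the E15 pools, against 528, 662 and 373 among adult pools. Normalized, the highest E15 value was 196 in replicate 1 and the lowest adult value 512 in replicate 3, so the ages did not overlap. Without E15 replicate 1 its log2 fold change was -2.55, the furthest from the value of -2.28 with all pools. A ratio of 2 genes within a library needs no scaling between libraries. The ratio of *Igf2* to *Igf1* counts was 124, 209 and 200.5 for E15, against 442, 368 and 637 for adult pools. It was thus higher in every adult pool, by 2.71 times in the means. Gene lengths were not used, so these ratios are of reads and not of transcripts, while their change with age does not depend on length.

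**Figure D1:**
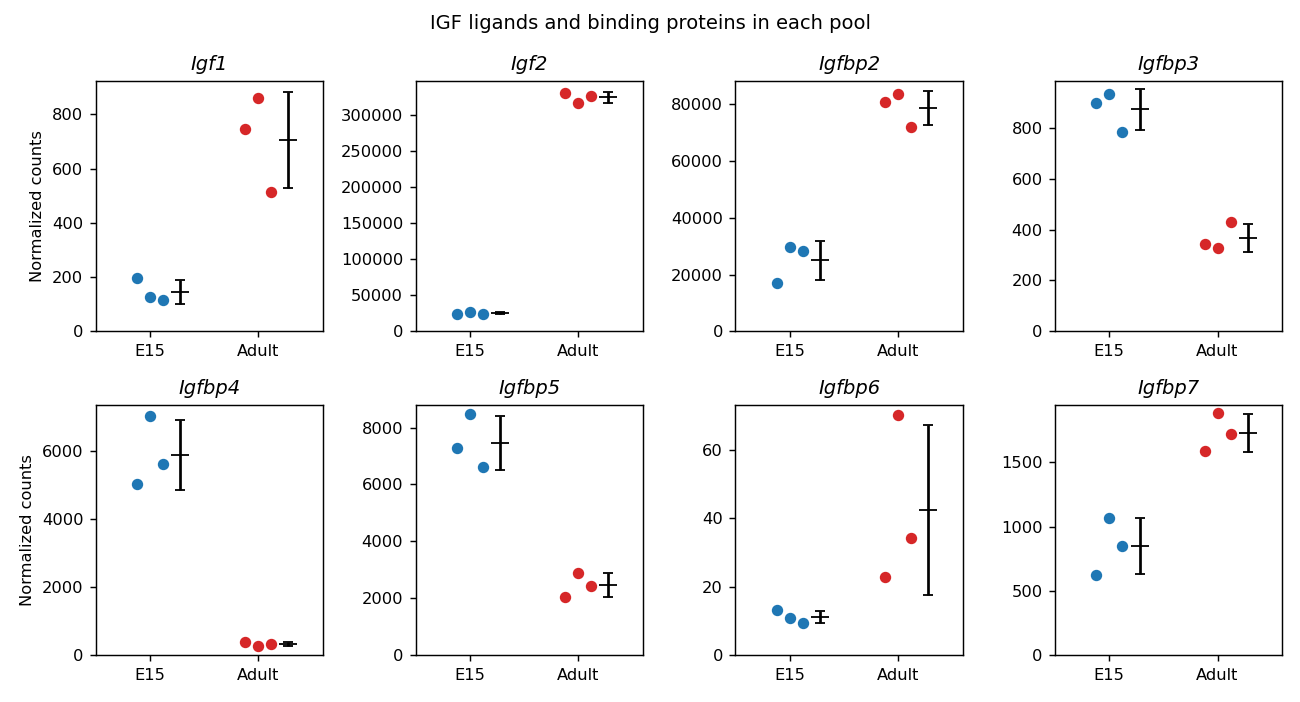
Normalized counts (vertical axes, from 0, a scale for each gene) of the 8 genes in each of 3 E15 pools (blue) and 3 adult pools (red), with mean ± SD beside the points. *Igf1*, *Igf2*, *Igfbp2*, *Igfbp6* and *Igfbp7* lie higher in the adult, *Igfbp3*, *Igfbp4* and *Igfbp5* at E15, and the ages do not overlap for any of the 8 genes.

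Among the binding proteins, *Igfbp2*, *Igfbp6* and *Igfbp7* were higher in the adult and *Igfbp3*, *Igfbp4* and *Igfbp5* at E15. *Igfbp2* (ENSRNOG00000016957) encodes a binding protein with a preference for IGF2 that is abundant in CSF. It had 20935, 38672 and 36001 raw counts over the E15 pools, against 57085, 64364 and 52406 among adult pools. The normalized counts of 17135, 29780.4 and 28233 for E15, against 80825, 83578 and 71977 for adult pools did not overlap, and E15 replicate 1 was clearly the lowest. By the fit *Igfbp2* was 3.15-fold higher in adult pools, a log2 fold change of -1.65 with a standard error of 0.19, and of -1.45 without E15 replicate 1. The sum of 8 epithelial markers was 8.42-fold higher in the adult. *Ttr* (8.96-fold) made up most of that sum, and the single markers ranged from 2.76-fold (*Aqp1*) to 45.1-fold (*Kl*).

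*Igfbp4* (ENSRNOG00000010635) showed the largest difference of the family. IGFBP4 is mostly an inhibitor of IGF action and is cut by the protease PAPP-A. Its raw counts were 6144, 9121 and 7165 for E15, against 277, 211 and 225 for adult pools. Every E15 pool was thus more than an order of magnitude above every adult pool. The log2 fold change was 4.18 (standard error 0.18) and stayed between 4.03 and 4.30 when single pools were left out. In RefSeq a long non-coding RNA gene, LOC134480869, overlaps *Igfbp4*.

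*Igfbp5* (ENSRNOG00000017206), whose protein binds to extracellular matrix, was counted 8889, 11013 and 8432 times in the E15 pools, against 1440, 2218 and 1760 among adult pools. The normalized counts were 7456 ± 947 and 2445 ± 421 (SD, n = 3), a difference of 3.05-fold in favour of E15. On chromosome 9 of GRCr8 *Igfbp5* and *Igfbp2* follow each other with no coding gene between them, on opposite strands and with their ends facing. This pair went in opposite directions, and the ratio of *Igfbp2* to *Igfbp5* counts within a library was 2.36 to 4.27 at E15 and 29.0 to 39.6 in the adult.

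*Igfbp3* (ENSRNOG00000008645), the main carrier of IGFs in plasma, had 1101, 1216 and 999 raw counts over the E15 pools, against 244, 253 and 312 among adult pools. The pools did not overlap, and *Igfbp3* was 2.38-fold higher at E15 (log2 fold change 1.25, standard error 0.15). Its neighbour on chromosome 14, *Igfbp1*, likewise known as a plasma carrier, was no member by the rule and had 9, 10 and 5 counts at E15. *Igfbp1* had 0 counts in each adult pool, so it was at least 4.65-fold higher at E15, against a floor of 3 counts over the 3 adult pools. This bound was at least 3.02-fold without adult replicate 2, because 3 counts are then spread over fewer libraries.

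*Igfbp7* (ENSRNOG00000002050) encodes a related protein with weak affinity for IGFs that is known from vessel walls and matrix. Its raw counts overlapped between the ages, with 765, 1387 and 1082 for E15, against 1119, 1452 and 1250 for adult pools. Only after normalization were the adult pools (1584, 1885 and 1717) above the E15 pools (626, 1068 and 849), a difference of 2.04-fold. Under scaling by total counts only, its log2 fold change was -0.22 in place of -1.03, and it was not called. Without E15 replicate 1, the lowest pool, it was -0.86. In RefSeq the gene overlaps pseudogenes and *Polr2b*, and reads that fell on more than 1 gene were left out by the counting. The endothelial marker list went the other way, 8.99-fold higher at E15.

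*Igfbp6* (ENSRNOG00000010977), which prefers IGF2, was close to the limit of detection. It had 16, 14 and 12 raw counts over the E15 pools, against 16, 54 and 25 among adult pools, where replicate 2 held more than the other adult pools together. As shares of all library counts the ages overlapped (8.95e-05% in E15 replicate 1, 8.64e-05% in adult replicate 1). They were apart only after normalization. The fitted log2 fold change was -1.93 with a standard error of 0.50, or -1.39 without adult replicate 2. Under scaling by total counts only it was -1.14 and was not called.

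The call counts are given with their background only as a description. With edgeR's quasi-likelihood test on all 16643 genes tested (threshold of 0.05 after Benjamini-Hochberg adjustment), 64.0% of all genes were called at either age, 34.7% as higher at E15 and 29.3% as higher in adult plexus. All 8 members were called, 3 at E15 and 5 in the adult. By normalized counts the pools did not overlap for any of the 8, nor for 70.1% of all genes tested. Since the rule had required a call by the study on these same pools, nothing was read from these counts. Of the genes in the deposited table that could be tested, 92.0% were called here. The median log2 fold change was -1.34 over the 8 members, 0.14 over all genes tested and 0.74 over the genes of the deposited table.

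With TMM the median of all genes was 0.14, and with total counts only it was 0.94 (log2). A change of scaling moves every gene by nearly the same amount. Values relative to the median are therefore nearly equal by construction, for these genes as for any other. Relative to the median, *Igf2* was at -3.86 with both scalings, *Igf1* at -2.42 with both, *Igfbp2* at -1.79 with both and *Igfbp7* at -1.17 with both. On the E15 side *Igfbp4* was at 4.04 with TMM and 4.05 with total counts only, and *Igfbp5* at 1.47 and 1.46. None of the 8 genes changed direction under any scaling.

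**Figure D2:**
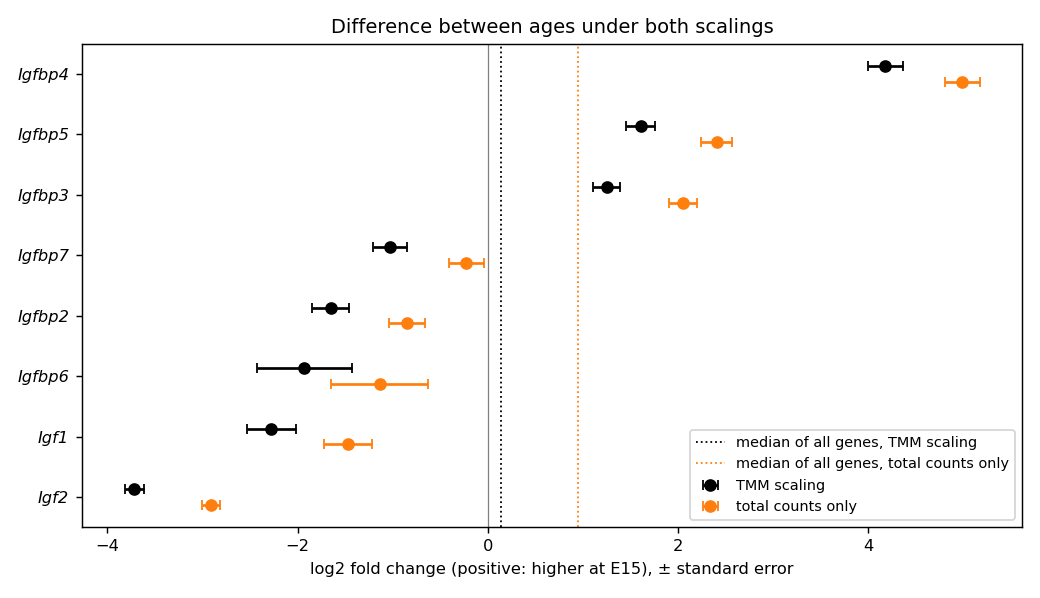
Log2 fold change between the ages (horizontal axis, positive where higher at E15) with its standard error for each of the 8 genes, with TMM scaling (black) and with total counts only (orange). Dotted lines mark the median of all genes, 0.14 and 0.94, and each gene keeps its side of 0 with both scalings.

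The make-up of the binding protein reads differed between the ages. *Igfbp2* held 55.3%, 63.0% and 67.1% of the counts of the 6 IGFBP genes in E15 replicates 1, 2 and 3, and 94.9%, 93.9% and 93.6% in adult replicates 1, 2 and 3. *Igfbp5* held 19.0% ± 4.01 at E15 and 2.92% ± 0.462 in the adult, and *Igfbp4* 14.8% ± 1.44 and 0.390% ± 0.0769 (SD, n = 3). The share of *Igfbp3* was 2.25% ± 0.574 and 0.444% ± 0.0999. For these 4 genes the shares of the ages did not overlap. The share of *Igfbp7* was 2.02% to 2.26% at E15 and 1.86% to 2.23% in the adult, which overlapped, as did the share of *Igfbp6*, at most 0.0788% in any pool. *Igfbp7* therefore differed between the ages by normalized counts and hardly by its share of the family. E15 replicate 1 had the lowest share of *Igfbp2* and the highest of *Igfbp4* and *Igfbp5*.

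**Figure D3:**
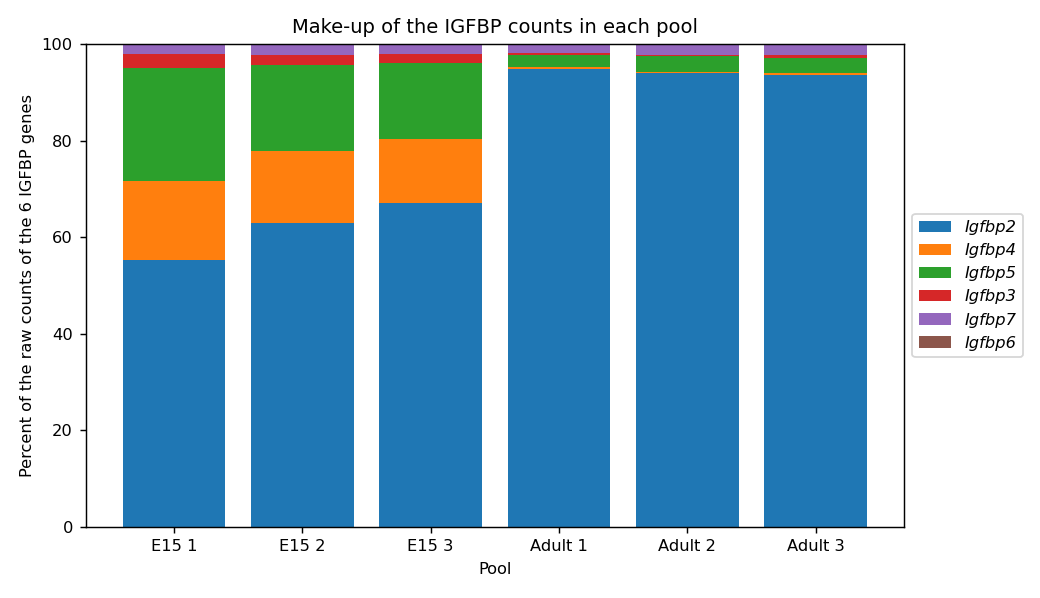
Share of each gene in the raw counts of the 6 IGFBP genes (vertical axis, percent) in each pool (horizontal axis). *Igfbp2* (blue) fills 55.3% to 67.1% of the E15 bars and 93.6% to 94.9% of the adult bars, where *Igfbp4* (orange) is barely visible.

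Summed, the 6 IGFBP genes had 40128 ± 8338 normalized counts in E15 pools against 83703 ± 6205 in adult pools (SD, n = 3). As a share of all counts of a library the sum was 0.276% ± 0.0580 and 0.329% ± 0.0267, only 1.19 times higher in the adult means, and the ages overlapped. The ratio of *Igf2* counts to this sum was 0.788, 0.551 and 0.556 for E15 pools against 3.88, 3.55 and 4.25 for adult pools. It was thus higher in every adult pool, 6.16 times in the means. The ratio of *Igf2* to *Igfbp2* alone was 1.42, 0.876 and 0.830 for E15, against 4.09, 3.78 and 4.54 for adult pools, and was highest among the E15 pools in replicate 1, where *Igfbp2* was low.

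Deviations of a pool are given as the log2 ratio of its normalized level to the mean of the other pools of its age. In E15 replicate 1, *Igfbp2* lay at -0.76, *Igfbp7* at -0.61 and *Igfbp4* at -0.33, whereas *Igf1* lay at 0.70, *Igfbp6* at 0.36 and *Igf2* at -0.02. In E15 replicate 2, *Igfbp7* lay at 0.53, *Igfbp4* at 0.40, *Igfbp2* at 0.39, *Igfbp5* at 0.29, *Igfbp3* at 0.15 and *Igf2* at 0.12, and *Igf1* at -0.33. *Igfbp2*, *Igfbp4* and *Igfbp7* were thus low in replicate 1 and high in replicate 2. The summed endothelial markers lay at -0.43 in E15 replicate 1 and 0.39 in replicate 2, and those of mesenchyme and stroma at -0.32 and 0.31. Lists of other cell types had the same order. They lay at -0.24 and 0.086 for plexus epithelium, -0.44 and 0.18 for leptomeninges, and -0.23 and 0.26 for smooth muscle and pericytes. For macrophages the values were -0.22 and 0.22, and for erythroid cells -0.35 and 0.27. Those of developing neurons (7 of 7 genes) lay at 0.92 and -1.41. Neural progenitors (0.68 and -0.52) and oligodendrocytes (0.56 and -0.53) went the same way as neurons, and proliferation lay at -0.029 and -0.096. The part of these marker lists in the spread of the members was not tested. In the adult, *Igf1* was lowest in replicate 3 (-0.65) and *Igfbp4* highest in replicate 1 (0.43).

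The profile of *Igf2* over the 6 pools was shared by many genes. By Pearson's r of log2(normalized count + 0.5), among 6743 named genes with a mean count above 100 at either age, the most similar were *Spag1*, *Cmtm6* and *Atp1b1*, with r of 0.99995, 0.99992 and 0.99991. *Atp1b1*, a subunit of the sodium pump, had a log2 fold change of -6.15, *Spag1* of -2.23 and *Cmtm6* of -2.12, so likeness here is of shape and not of size. In all, 963 genes had an r above 0.99 with *Igf2*, and 24 with *Igf1*. Every gene compared was named through the study's table of called genes, so each had been selected for a difference between these ages. Closest to *Igf1* were *Kdsr*, *Dcaf12l1* and *Arl8a* (r of 0.996, 0.996 and 0.995), with log2 fold changes of -0.65, -0.76 and -1.02. These are descriptions over 6 pools that share 2 ages, and carry no test.

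A list of 56 further genes of IGF and insulin signalling was examined by role. Of these, 25 were matched to an identifier, and these too were named only because the study had called them. By edgeR's quasi-likelihood test 17 were called at E15 and 8 in the adult, against 50.3% and 41.7% of the tested genes of the deposited table. The median log2 fold change was 1.11 over the 25 genes, also with *Igfbp1* at its bound. Under scaling by total counts only, 3 in place of 8 were called in the adult. Over all genes 72.6% were then called, 13.8% as higher in the adult and 58.9% at E15. For this scaling the shares were not taken over the genes of the deposited table, so they are an unlike background for the 25 genes.

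Of the receptors, only the insulin receptor and its relative could be named. *Insr* had 1482, 1683 and 1611 raw counts over the E15 pools, against 2119, 2428 and 2494 among adult pools, and was 2.54-fold higher in the adult. *Insrr*, an orphan receptor of the same family, had 13, 13 and 10 counts for E15, against 0, 0 and 3 for adult pools, a ratio of 6.97 (95% interval 2.20 to 35.4). Leaving out adult replicate 2 gave *Insrr* a ratio of 4.53 (95% interval 1.43 to 23.0). Without adult replicate 3 it was at least 4.67-fold higher at E15. Its call was lost in DESeq2, with the replicate block and without any of the pools except adult replicate 3.

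All 7 receptor adaptors that were matched, of 9 listed, were higher at E15. Only genes called by the study could be matched, and 50.3% of the tested genes of the deposited table were called at E15. *Grb10*, an imprinted gene whose product restrains signalling from the insulin and IGF1 receptors, had 16637, 16791 and 15484 raw counts over the E15 pools, against 117, 275 and 181 among adult pools. It was thus 50.0-fold higher at E15 (log2 fold change 5.64, standard error 0.25). *Irs4*, a docking protein of these receptors, had 250, 369 and 246 counts for E15, against 0, 16 and 1 for adult pools, a fitted difference of 29.3-fold. Without adult replicate 2, which held nearly all adult counts of *Irs4*, the ratio was 327 (95% interval 58.5 to 12926). Leaving out adult replicate 1 gave *Irs4* a ratio of 20.1 (95% interval 12.5 to 34.6). The other docking proteins *Irs1* and *Irs2*, with *Shc1*, *Grb14* and *Gab1*, lay between log2 fold changes of 0.85 and 1.75. The call of *Grb14* was lost without E15 replicate 3 (1.08, standard error 0.42).

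The 3 genes of the IGF2 mRNA-binding proteins, which bind and regulate transcripts including that of *Igf2* and are known mainly from embryonic tissue, were all higher at E15. These too could be matched only because the study had called them. *Igf2bp1* had 1281, 1412 and 1446 raw counts over the E15 pools, against 17, 24 and 16 among adult pools, a difference of 42.0-fold. *Igf2bp2* was 26.3-fold higher, with 1307 ± 88.5 and 49.6 ± 5.06 normalized counts (SD, n = 3). The gene that the deposited table describes as *Igf2bp3*, under the name D3ZB84_RAT, had 4109 counts over the E15 pools and 11 over the adult pools, a fitted difference of 212-fold. Leaving out adult replicate 3, which held 9 of the 11, gave a ratio of 799 (95% interval 221 to 6601), and leaving out adult replicate 2 gave 141 (95% interval 78.8 to 283). The genes for these proteins and *Igf2* thus went in opposite directions with age.

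Downstream genes were split between the ages. Matched were 2 of 11 genes of PI3 kinase and AKT, 2 of 9 of the mTOR branch and 2 of 3 FoxO factors. *Akt1*, a kinase that acts below the receptors, had a log2 fold change of 0.95, and *Akt2*, the form best known from insulin action, of -0.92. *Eif4ebp1*, a translation inhibitor that mTOR inactivates, was 8.45-fold higher at E15, and *Rictor*, of the second mTOR complex, 1.79-fold. *Foxo3*, a transcription factor restrained by AKT, was at 1.75 and *Foxo4* at -0.58 on the log2 scale. *Foxo4* went the other way under total counts only (0.23, not called).

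Of the growth hormone axis, 3 of 5 listed genes were matched, *Ghr* and *Jak2* not among them. *Stat5a*, *Stat5b* and *Socs2* were higher in the adult, by 3.69-, 2.56- and 2.41-fold. Among the tested genes of the deposited table, 41.7% were called in the adult. STAT5 factors carry growth hormone signals to genes such as *Igf1*, and SOCS2 restrains that signal. *Stat5b* had 169, 165 and 175 raw counts over the E15 pools, against 237, 268 and 252 among adult pools. Of the protease system, only *Stc2*, whose product inhibits PAPP-A, was matched. It had 17, 27 and 42 counts for E15, against 0, 2 and 0 for adult pools, which gave a ratio of 25.0 with a 95% interval from 6.71 to 209.5. When adult replicate 2 was left out, *Stc2* was at least 10.8-fold higher at E15. Of 4 listed genes that serve the mannose 6-phosphate route, which also uses the IGF2 receptor, *M6pr* and *Gnptg* were matched. They were 1.75- and 1.93-fold higher in the adult with TMM. With total counts only *M6pr* was at 0.00042 and *Gnptg* at -0.15 on the log2 scale, and neither was called, nor were *Akt2* (-0.11) and *Socs2* (-0.47).

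**Figure D4:**
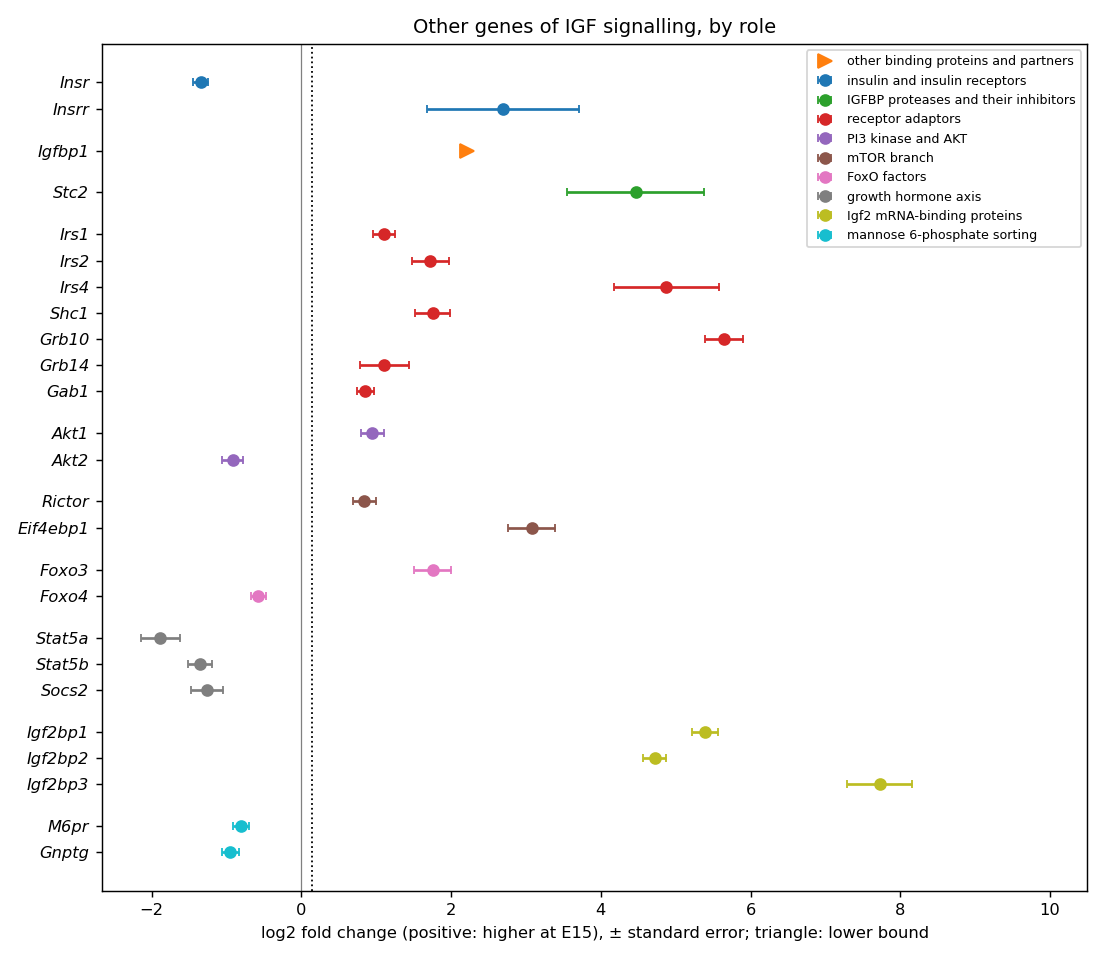
Log2 fold change between the ages (horizontal axis, positive where higher at E15) with its standard error for 25 other genes of IGF and insulin signalling, coloured by role. The triangle for *Igfbp1* is a lower bound, the dotted line marks the median of all genes at 0.14, and the receptor adaptors and IGF2 mRNA-binding proteins lie to its right.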

How the data were processed

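Sequenced RNA from whole lateral plexuses was compared between 3 E15 and 3 adult pools, grouped by the authors' sample titles. Per the paper's methods and the labels, reads were trimmed, placed by Bowtie 0.12.7 on Ensembl's rat genome (release 61), kept where they mapped uniquely and counted on nuclear genes with HTSeq 0.4.7p4 (union). The deposited counts are these raw counts without normalization, for 29479 identifiers. A second table by the authors, deposited for 10653 genes from edgeR 2.4.0, holds log2 values (fold change and abundance) and p-values of their exact test, of which none was used, and only its gene names and descriptions were read.

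The ages were compared with edgeR 4.0.16 (estimateDisp, glmQLFit, glmQLFTest) under R 4.3.3, scaled by TMM. Age was the sole term, and a gene needed a sum above 10 counts over the libraries. The tests were checked on simulated counts. Leaving out a pool, other scalings and filters, limma-voom (limma 3.58.1), DESeq2 1.42.0 and the exact test were alternatives. Intervals of ratios are exact binomial at 95%, and like the floor of 3 counts cover counting error only. Replicates are separate pools of animals. With 3 pools per age, the smallest two-sided p of an exact permutation test is 0.1.

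The members and lists were chosen with earlier results of these data known. Genes named were all members, up to 2 called genes of largest change per role and direction, genes that changed sign under a scaling, and the 3 genes most like each ligand. *Irs1*, *Irs2*, *Shc1*, *Grb14*, *Gab1*, *Socs2* and *Igf2bp2* were named beyond this rule after their values were seen, and *Igf2bp3* was matched by its description in the deposited table. Markers of erythroid cells, developing neurons, neural progenitors, oligodendrocytes and proliferation were also listed. As with the other marker lists, only genes called by the study could be matched. Their summed level was higher at E15 by 41.7-fold for erythroid cells, 12.2-fold for neurons, 2.13-fold for progenitors and 19.8-fold for proliferation, and higher in the adult by 8.12-fold for oligodendrocytes, of whose 3 matched genes *Mog* was 2.20-fold higher at E15. *Neurod6* was at 0 in the adult. With single pools left out, a check added after seeing the data, the fold was 3.94 for oligodendrocytes without adult replicate 1, and without adult replicate 2 it was 22.1 for neurons and 16.1 in place of 7.08 for leptomeninges. A gene of the pathway list is not reported here and was left out of its counts. Promoter sequences are from RefSeq, assembly GRCr8, with all 8 members matched. Figures were drawn with matplotlib 3.10.9 in Python 3.11.15.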

Additional observations from a re-analysis of the deposited data

How the results depend on the processing

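The 8 members kept their direction under every scaling, filter and test tried and without any single pool. Of the alternative values, 126 kept their call while 2 did not. Members had been called by the study on these same pools, so their kept direction and calls, here and below, were largely set in advance. Under scaling by total counts only, the log2 fold changes of *Igfbp6* (-1.14) and *Igfbp7* (-0.22) were no longer called, 9799 genes were called at E15 in place of 5773 and 2292 in the adult in place of 4879, and the pathway list had 3 calls in the adult in place of 8. With the 10 most abundant genes left out of the totals, 3196 genes were called in the adult. Of the pathway genes, *Foxo4* (0.23) and *M6pr* (0.00042) changed sign under total counts only. The cause of these differences is the scaling alone, which moved the median of all genes to 0.94 and, with the most abundant genes left out, to 0.60. With single pools left out, calls at E15 ran from 5009 to 6218 and in the adult from 4327 to 5449. With the replicate number as a block, 5320 genes were called at E15 and 4608 in the adult, 16 and 8 on the pathway list, and the 8 members kept their calls (*Igf2* at -3.72, *Igfbp6* at -1.80). No pairing of the pools by number was seen: same-numbered pools had correlations of -0.0072, -0.011 and -0.038, and no pool correlated best with its own number. With 3 pools per age these values cannot exclude a batch shared by number. Levels per kilobase were not run, since no transcript lengths were used here. At this depth differences of *Igfbp6* and *Igfbp1* rest on few counts.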
